A study of Mus musculus with 33 samples.

Results

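Mouse embryonic stem cell cultures given the same labelled dose of activin A, 3 ng/mL, were measured from RNA used in 2 settings, and the 2 settings differed widely in lineage genes. Libraries of the dilution series, read from 10 ng of mRNA, held higher levels of the streak gene T than the dose-set library. The same was true of the endoderm genes Cer1 and Foxa2 and the presomitic mesoderm gene Tbx6. These libraries held less of the neural genes Pax6, Sox1 and Fezf2, of Nanog and several naive pluripotency genes, and of extraembryonic endoderm genes. Of all genes tested, 41.8% were called in either direction. The comparison covered 3 of the 33 libraries of the series, chosen by their labels alone: a pair of 10 ng DP-seq libraries (10ng_TR1 and 10ng_TR2) and the single dose-set library AA3.

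In both settings embryoid bodies, which are aggregates of differentiating stem cells, grew without serum, were dispersed on day 2, received activin A for 2 days and were harvested on day 4. DP-seq copies cDNA into a library with heptamer primers designed for the purpose. The 10 ng pair is labelled as technical replicates, so n = 2 is 1 sample measured 2 times, and p-values measure technical spread between libraries. The labels do not give the mRNA amount behind AA3, nor the primer set of any of the 3 libraries, nor do they name the stem cell line. The RNA, the mRNA amount, the preparation and the sequencing run all go with the library set and cannot be told apart. AA3 held 15707808 counts, and the 10 ng libraries held 3110866 and 10324740.

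The dose set gives the range against which AA3 can be read. It held the untreated serum-free control (SFM, 2 libraries, the second with yeast transcripts spiked in), SB (the activin receptor inhibitor SB-431542, 1 library), activin A at 15 ng/mL (AA15, 2 technical replicates) and at 100 ng/mL (AA100, 1 library). SFM replicate 2 stood apart from the others: 56.2% of genes differed over 2-fold between the SFM libraries, against 3.63% between the AA15 libraries. The main test used AA3, the 10 ng pair and the AA15 pair alone, so SFM, SB and AA100 were not in it. SFM replicate 2 was also left out of every dose-set range, and its values stand beside the results they touch. The 1 ng pair of the dilution series, also at activin A 3 ng/mL, was read from 10-fold less mRNA.

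Activin A signals through the same receptors as Nodal, and Smad2 and Smad3 carry the signal to the nucleus. In the early embryo and in embryoid bodies this pathway, with Wnt, brings on the primitive streak, where pluripotent epiblast cells turn into mesoderm and definitive endoderm. Higher signal favours the anterior streak and endoderm, and cells that receive little signal tend towards neuroectoderm. In bulk samples fewer cells of a type and less RNA per cell cannot be told apart.

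AA3 and the 10 ng pair were farther apart than technical replicates and than AA3 and the other dose-set libraries, SFM replicate 2 excepted. With every library thinned to 3110866 counts, the SD of the log2 ratio over genes averaging 10 counts or more was 0.403 within the 10 ng pair and 0.444 within the AA15 pair. Between AA3 and the 10 ng libraries it was 1.27 and 1.24, and 32.4% and 30.2% of genes differed over 2-fold. AA3 against AA100, across the whole step from 3 to 100 ng/mL, gave an SD of 0.633 and 8.77%. AA3 against SB gave 0.893 and 15.64%, and AA3 against SFM replicate 2 gave 1.92 and 56.07%. The 1 ng pair lay as far from AA3, at 1.27 for both libraries, and 0.523 to 0.541 from the 10 ng pair.

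**Figure D1:**
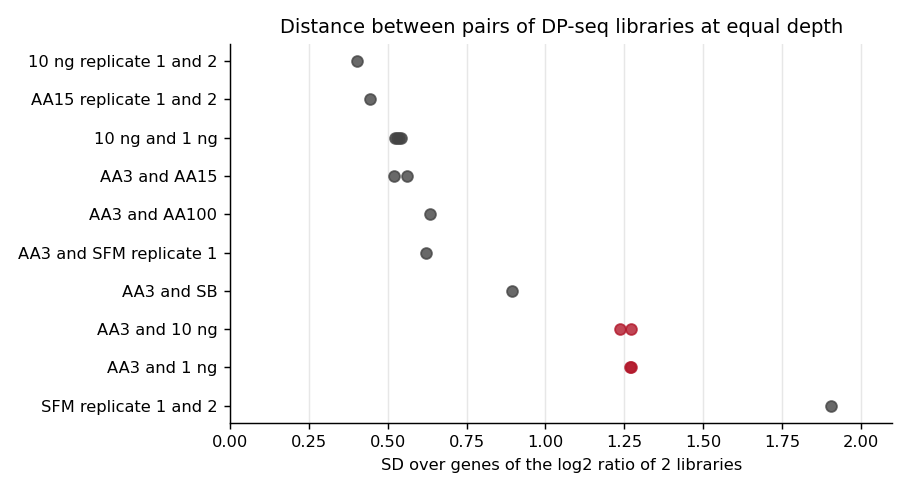
Distance between pairs of DP-seq libraries, as the SD of the log2 ratio over genes averaging 10 counts or more, all libraries thinned to 3110866 counts. Red marks AA3 against the 10 ng and 1 ng libraries, at 1.24 to 1.27, beyond AA3 against AA100 at 0.633 and against SB at 0.893.

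Of 12162 genes tested with edgeR's quasi-likelihood test, 2411 (19.8%) were higher and 2678 (22%) were lower in the 10 ng pair than in AA3 at an adjusted p under 0.05. By at least 2-fold, 1746 (14.4%) were higher and 1802 (14.8%) lower. Calls in either direction made up 41.8% of genes, and the median log2 change was 0.01, so lineage lists are read against this wide background. With library totals alone as scaling, 3273 genes were higher and 1973 lower, 62.4% of calls being higher in place of 47.4%, and the median of all genes moved to 0.25. No called gene named here changed its direction under that scaling. The calls rest on a spread taken from the technical pairs. When both SFM libraries, SB and AA100 were added to the fit, edgeR called 0 genes (smallest adjusted p = 0.254, 1617 genes at an unadjusted p under 0.05). Without SFM replicate 2 the same fit called 2471 higher and 2606 lower, and DESeq2 on the 5 libraries called 1588 and 1976.

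The lineage lists departed from this background in 2 directions. Of the primitive streak genes tested, 10 of 17 were higher and 1 lower (58.8% and 5.88%, median log2 change 1.13). Mesoderm had 10 of 16 higher and 2 lower (62.5% and 12.5%, median 1.29), and endoderm 12 of 21 higher and 3 lower (57.1% and 14.3%, median 1.45). In neuroectoderm 5 of 27 were higher and 12 lower (18.5% and 44.4%, median -0.99). Among pluripotency and epiblast genes 2 of 25 were higher and 11 lower (8.0% and 44.0%, median -0.79). The lists hold 20, 26, 22, 32 and 27 genes, and the members not tested had too few counts. They included the mesoderm genes Msgn1, Meox1 and Pdgfra, the streak genes Cdx1 and Cdx4, the eye field gene Rax and the pluripotency gene Esrrb.

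**Figure D2:**
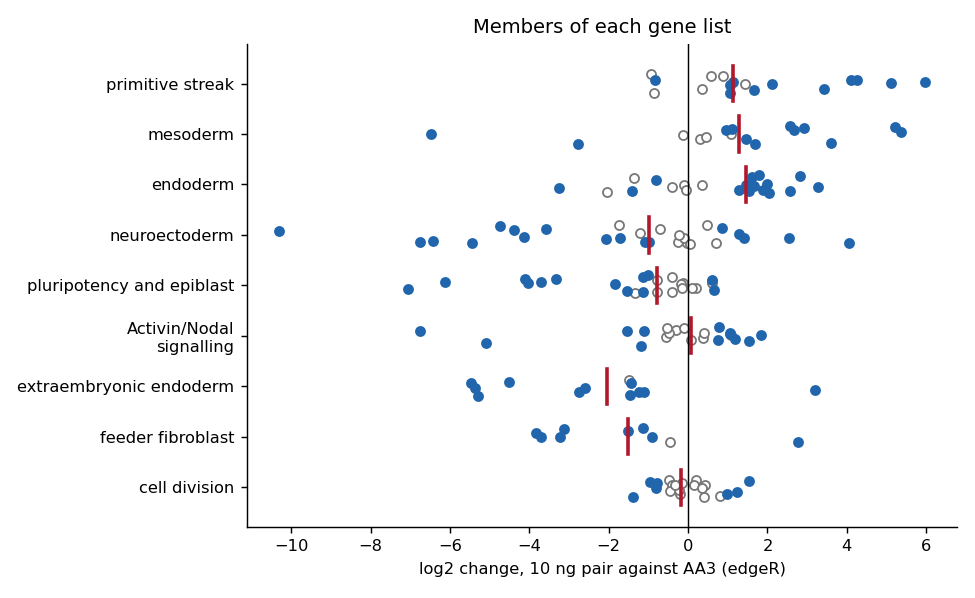
Log2 change of each tested member, 10 ng pair against AA3, by list. Filled blue points passed edgeR at an adjusted p under 0.05, open grey points did not, and red bars mark list medians, from 1.45 in endoderm to -0.99 in neuroectoderm among the 5 lineage lists.

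T, which encodes the Brachyury T-box factor of the streak and nascent mesoderm, stood at 216 TMM-scaled CPM (counts as a share of the corrected library size) in AA3 and at 776 and 1105 CPM in the 10 ng libraries. Its log2 change was 2.12 ± 0.29 (SE, edgeR adjusted p = 2.06e-08). The dose set held T at 67.3 in SFM replicate 1, 1.08 in SFM replicate 2, 1.80 in SB, 297 and 488 in AA15 and 770 in AA100, so both 10 ng libraries lay above AA15 and above AA100, 1 of them by little. Cer1, an antagonist of Nodal, BMP and Wnt ligands secreted by anterior endoderm, stood at 85.5 CPM in AA3 and 268 and 319 at 10 ng (log2 change 1.78 ± 0.26, adjusted p = 1.58e-08). Its 10 ng values lay above both AA15 libraries, at 245 and 198, and below AA100, at 786. Foxa2, a forkhead factor of the anterior streak and endoderm, stood at 13.4 CPM in AA3 and 48.8 and 60.7 at 10 ng (log2 change 2.04 ± 0.27, adjusted p = 5.73e-10). Both were above AA100, at 42.4 CPM. All 3 markers were detected in every library of the comparison.

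The 1 ng, standard RNA-seq and SMART-seq libraries labelled activin A 3 ng/mL also held all 3 markers above AA3. T was at 815 and 797 CPM in the 1 ng pair, 373 and 363 in standard RNA-seq and 363 and 435 in SMART-seq. Foxa2 was at 79.8 and 86.7, 97.0 and 99.2, and 57.6 and 86.1 CPM in the same libraries, and Cer1 at 223 and 231, 148 and 145, and 279 and 304. Levels across methods carry the methods' own biases, so these values are a description only.

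**Figure D3:**
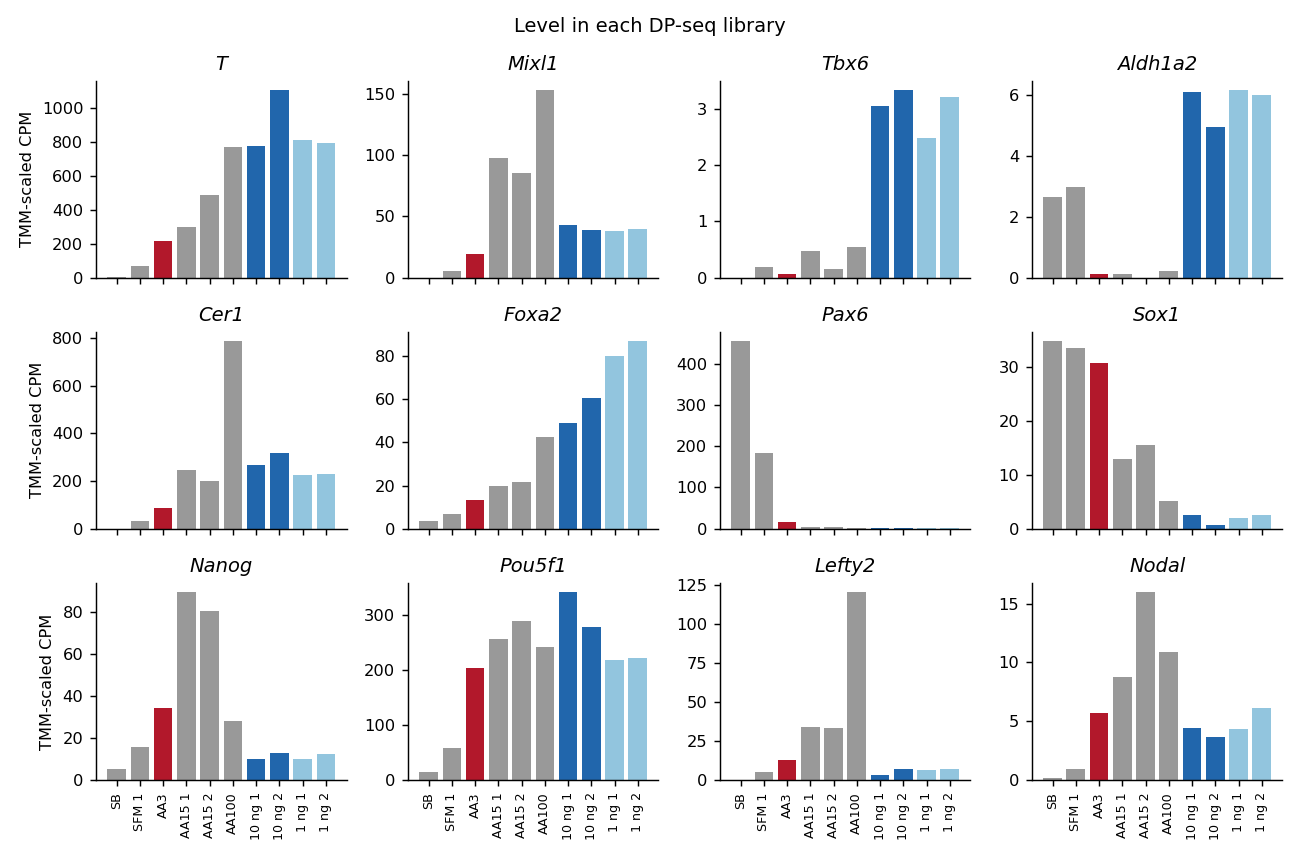
CPM (TMM-scaled, linear axes from 0, 1 bar per library) of 12 genes. SFM replicate 2 is not drawn. Red is AA3, dark blue the 10 ng pair, light blue the 1 ng pair and grey the other dose-set libraries. T is at 216 CPM in AA3 and 776 and 1105 at 10 ng, while Pax6 is at 15.6 and at 1.39 and 1.26.

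The other streak genes called higher included genes of the organizer and of the posterior streak. Chrd, the BMP antagonist chordin of the organizer, stood at 1.77 CPM in AA3 and 56.9 and 66.2 at 10 ng (log2 change 5.12 ± 0.36, edgeR adjusted p = 5.05e-24). No library of the dose set held more than 5.74 CPM. Nkx1-2, a homeobox gene of the posterior streak and its neuromesodermal cells, stood at 2.11 CPM in AA3 and 35.8 and 36.8 at 10 ng (log2 change 4.10 ± 0.36, adjusted p = 2.67e-18). Cdx2, a caudal homeobox gene, had 3 counts in AA3 and 18 and 40 at 10 ng, a ratio of 19.4 after scaling (95% exact counting interval 6.30 to 96.5, adjusted p = 1.5e-06). The Wnt ligand gene Wnt3a had 0 counts in AA3 and 2 and 8 at 10 ng, at least 3.34-fold higher with a floor of 3 counts over the group. Wnt3a had no adjusted p in DESeq2, with 3 libraries only or at thinned depth.

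Sp5, a zinc finger gene and direct Wnt target, was at 0.679 CPM in AA3 and 7.76 and 7.21 at 10 ng (log2 change 3.43 ± 0.52, adjusted p = 2.5e-08). Mixl1, a homeobox gene of the early streak, was at 19.7 CPM in AA3 and 43.3 and 39.2 at 10 ng (log2 change 1.06 ± 0.25, adjusted p = 3.58e-04). Its 10 ng values lay below both AA15 libraries, at 97.6 and 85.2, and AA100, at 153. Wnt3, Lhx1 and Wnt8a were also called higher, with log2 changes of 1.65, 1.13 and 1.05. Wnt8a lost its call in DESeq2 (adjusted p = 0.11) and without 10 ng replicate 2 (0.19). Evx1, which marks the posterior streak, was the only streak gene called lower, at 42.5 CPM in AA3 and 21.6 and 25.4 at 10 ng (log2 change -0.84 ± 0.24, adjusted p = 0.00339). Eomes, a T-box factor of early streak and endoderm, had 8 counts in AA3 and 3 and 12 at 10 ng and was not called (adjusted p = 0.378), nor was Mesp1 (adjusted p = 0.715).

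The start regions of T and Sp5 are shown because these were the streak genes called higher whose promoter entry held the TCF/LEF core word CTTTGA, through which Wnt targets are commonly bound. The windows run from 250 bases before to 50 after the annotated start in RefSeq's GRCm38.p6, and capitals mark CTTTGA or its reverse complement TCAAAG.
T promoter, chr17:8434173-8434472, plus strand: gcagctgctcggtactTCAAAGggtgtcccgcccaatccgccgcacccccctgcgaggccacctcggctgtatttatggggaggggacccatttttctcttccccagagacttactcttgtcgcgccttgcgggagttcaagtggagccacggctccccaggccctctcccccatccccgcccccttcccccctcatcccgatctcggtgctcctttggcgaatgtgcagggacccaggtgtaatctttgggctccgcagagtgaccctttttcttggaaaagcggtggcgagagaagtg
Sp5 promoter, chr2:70474673-70474972, plus strand: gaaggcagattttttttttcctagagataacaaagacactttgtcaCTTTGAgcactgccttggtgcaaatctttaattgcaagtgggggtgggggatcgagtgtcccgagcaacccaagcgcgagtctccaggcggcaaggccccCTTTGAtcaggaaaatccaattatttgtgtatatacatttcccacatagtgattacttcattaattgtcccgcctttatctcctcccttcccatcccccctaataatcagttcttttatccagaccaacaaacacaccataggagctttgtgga
T held TCAAAG 1 time and Sp5 held CTTTGA 2 times. Of the 10 streak genes called higher, 8 had an entry, and 2 of the 8 (25.0%) held the word on either strand. Among all 32851 promoter entries 5257 (16.0%) did. A match is a description of these letters and no evidence of binding.

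In the mesoderm list, presomitic and paraxial genes were among the largest rises. Tbx6, the T-box factor of presomitic mesoderm, had 1 count in AA3 and 11 and 37 at 10 ng, a ratio of 48.0 (95% exact counting interval 8.22 to 1936, edgeR adjusted p = 3.3e-06). Aldh1a2, the enzyme that makes retinoic acid in the trunk, had 2 counts in AA3 and 22 and 55 at 10 ng, a ratio of 38.5 (10.3 to 323.8, adjusted p = 2.23e-08). Both were outside the range of AA15 and AA100, which held Aldh1a2 at 0 to 0.207 CPM, while SFM replicate 1 held it at 2.97. Foxc2, a forkhead gene of paraxial mesoderm, was at 1.29 CPM in AA3 and 19.4 and 13.2 at 10 ng (log2 change 3.60 ± 0.42, adjusted p = 4.73e-12), with 12 in AA100 and 29.0 in SFM replicate 2. Dll1, a Notch ligand gene of presomitic mesoderm and neural progenitors, was at 1.77 CPM in AA3 and 14.4 and 12.6 at 10 ng (log2 change 2.91 ± 0.40). Dll1 was at 8.96 CPM in SFM replicate 1 and 21.2 in SB, so its 10 ng level lay inside the dose-set range. Tcf15, Twist1, Foxc1, Lfng, Dll3 and Kdr made up the rest of the 10 called higher, and of these Twist1 rested on 3 counts in AA3 and 6 and 12 at 10 ng and lost its call in DESeq2 (adjusted p = 0.18).

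The mesoderm genes called lower were Bmp4 and Pcdh8. Bmp4, a ligand gene of posterior streak, extraembryonic and lateral mesoderm, was at 11.1 CPM in AA3 and 1.39 and 1.71 at 10 ng (log2 change -2.77 ± 0.38, adjusted p = 2.04e-09). Pcdh8, a protocadherin gene of paraxial mesoderm, had 14 counts in AA3 and 0 in both 10 ng libraries, at least 4.66-fold lower. Pcdh8 was also at 0 in SFM replicate 2 and in both 1 ng libraries, and it lost its call without 10 ng replicate 2 (adjusted p = 0.12).

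Of the 21 endoderm genes tested 12 were higher, 3 lower and 6 not called. The summed level of the list was 6338 CPM in AA3, 6338 and 7414 at 10 ng, and 4542 and 4662 in the 1 ng pair. Foxa1, a forkhead partner of Foxa2, was at 2.45 CPM in AA3 and 23.6 and 23.5 at 10 ng (log2 change 3.26 ± 0.36, edgeR adjusted p = 2.65e-13). Gata6, a GATA factor of endoderm and mesendoderm, was at 3.87 CPM in AA3 and 23.9 and 30.4 at 10 ng (log2 change 2.83 ± 0.33, adjusted p = 4.31e-12). For both genes the highest dose-set library was AA100, at 13.1 and 14.4 CPM. Spink1, a protease inhibitor gene, was at 9.31 CPM in AA3 and 46.0 and 63.1 at 10 ng, against at most 19.9 in the dose set. Hhex, Cxcr4 and Dkk1, genes of anterior endoderm, its surface receptor and a Wnt antagonist, had log2 changes of 1.45, 1.99 and 1.65. Cxcr4 was at 46.0 and 55.0 CPM at 10 ng, and at 44.6 in SFM replicate 1 and 46.7 in SB. Dkk1 was at 2.5 CPM in AA3, 5.5 in SFM replicate 1 and in SB, and 7.8 and 8.0 at 10 ng. Hhex was lower in SFM replicate 1 and SB, at 5.545 and 4.99 CPM, than in AA3, at 9.988.

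Sox17, the SRY-box factor of definitive endoderm, was low in all 3 libraries, at 1.43 CPM in AA3 and 3.88 and 3.24 at 10 ng (log2 change 1.27 ± 0.49, adjusted p = 0.0306). The call was lost in DESeq2 (adjusted p = 0.17) and without either 10 ng library (0.10 and 0.083). Sox17 stood at 15.4 and 16.2 CPM in the 1 ng pair. Hnf4a, a nuclear receptor gene of endoderm and liver, had 13 counts in AA3 and 1 and 2 at 10 ng and was not called (log2 change -2.05 ± 1.02, adjusted p = 0.0986), but it was called lower with the 1 ng pair in place of the 10 ng pair (adjusted p = 0.0373). The endoderm members called lower were Pga5, a pepsinogen gene, Ripk4, a kinase gene of epithelia, and Otx2, a homeobox gene shared with epiblast and forebrain. Pga5 was at 58.2 CPM in AA3 and 5.55 and 6.40 at 10 ng (log2 change -3.25 ± 0.26), below all libraries of the dose set, SFM replicate 2 included. Otx2 was at 757 CPM in AA3 and 382 and 484 at 10 ng (log2 change -0.80 ± 0.24). Otx2 lost its call without 10 ng replicate 1 (adjusted p = 0.06).

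Forebrain and early neural factors were lower at 10 ng. Pax6, a factor of neural progenitors and the eye, was at 15.6 CPM in AA3 and 1.39 and 1.26 at 10 ng (log2 change -3.58 ± 0.39, edgeR adjusted p = 2.1e-13). It was at 183 and 520 CPM in the SFM libraries, 454 in SB, 4.42 and 5.25 in AA15 and 1.73 in AA100, so the 10 ng values lay below AA15 and just below AA100. Fezf2, a zinc finger gene of the forebrain, had 201 counts in AA3 and 0 in both 10 ng libraries, at least 67.0-fold lower. It was at 58.4 CPM in SFM replicate 1 and 0.207 in AA100. Its relative Fezf1 had 17 counts in AA3 and 0 in both 10 ng libraries, at least 5.66-fold lower, and lost its call without 10 ng replicate 2 (adjusted p = 0.10). Lhx2 and Wnt8b, a homeobox gene and a Wnt gene of the forebrain, had 177 and 50 counts in AA3. At 10 ng Lhx2 had 5 and 3 counts and Wnt8b had 0 and 1.

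Zic1 and Sox1 at 10 ng lay below every dose-set library. Zic1, a zinc finger gene of the neural plate, was at 48.1 CPM in AA3 and 0.832 and 0.450 at 10 ng (log2 change -6.42 ± 0.37, adjusted p = 1.52e-29). Zic1 stood between 15.2 CPM in SB and 58.4 in AA15 across the dose set, with 48.9 in AA100 and 6.79 in SFM replicate 2. Sox1, an early neuroectoderm marker, was at 30.8 CPM in AA3 and 2.50 and 0.631 at 10 ng, against 5.04 in AA100 (log2 change -4.74 ± 0.38). The neural genes called higher included Fabp7, Tubb3, Irx3 and Sox21. Tubb3, a neuronal tubulin gene with close paralogs, was at 45.2 CPM in AA3 and 246 and 280 at 10 ng (log2 change 2.54 ± 0.27), and at 566 in SFM replicate 2. Fabp7, a fatty acid binding protein gene of radial glia, was at 1.29 CPM in AA3 and 20.2 and 22.8 at 10 ng (log2 change 4.06 ± 0.40). Sox2, which neural and pluripotent cells share, was not called (log2 change -0.24). Summed over the neuroectoderm list, the level was 724.3 CPM in AA3 and 840 and 972.7 at 10 ng. Tubb3 alone made up 45.2 CPM of this sum in AA3 and 246 and 280 at 10 ng. The total did not fall, but it follows the most abundant members.

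Of the 25 pluripotency and epiblast genes tested, 2 were higher, both by less than 2-fold, 11 were lower and 12 were not called. The summed level of the list was 2225 CPM in AA3, 2319 and 2408 at 10 ng, and 1970 and 1913 in the 1 ng pair. Of this sum the single gene Lin28a made up 778 CPM in AA3, 1172 and 1277 at 10 ng, and 728 and 702 in the 1 ng pair. Pou5f1, the core factor Oct4, was at 203 CPM in AA3 and 340 and 278 at 10 ng (log2 change 0.61 ± 0.25, edgeR adjusted p = 0.041), and lost its call in DESeq2 (adjusted p = 0.052) and without 10 ng replicate 1 (0.21). Lin28a, an RNA-binding protein gene, had a log2 change of 0.65 ± 0.26, which turned to -0.14 with the 1 ng pair in place of the 10 ng pair (adjusted p = 0.48). Nanog was at 34.2 CPM in AA3 and 9.98 and 13.0 at 10 ng (log2 change -1.53 ± 0.25, adjusted p = 2.32e-07), against 89.3 and 80.7 in AA15 and 28.0 in AA100. Dnmt3b, a DNA methyltransferase gene of the epiblast, was at 3.87 CPM in AA3 and 3.05 and 1.17 at 10 ng (log2 change -1.15 ± 0.48, adjusted p = 0.0448), and lost its call with library totals alone (adjusted p = 0.13), in DESeq2 (0.34) and without 10 ng replicate 2 (0.72). The epiblast genes Fgf5 and Pou3f1 were not called (log2 changes -0.18 and 0.19).

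The genes with the largest falls are known from naive cells and the germline. Dppa4 had 21 counts in AA3 and 0 in both 10 ng libraries, at least 7.0-fold lower, and Dppa3, also called Stella, had 81 counts against 0 and 1. Zfp42, which encodes Rex1, was at 7.27 CPM in AA3 and 0.555 and 0.360 at 10 ng (log2 change -4.11 ± 0.53, edgeR adjusted p = 1.42e-10). Dppa2, Dppa5a and Nr0b1 had log2 changes of -4.04, -3.32 and -3.72. All 6 lay below every dose-set library other than SFM replicate 2, so their 10 ng level was not reached at any dose there. In SFM replicate 2, Dppa4 was at 0 and Nr0b1 at 0.108 CPM, while the other 4 were between 3.34 and 23.1.

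Activin/Nodal pathway genes were called in both directions, with 7 of 21 tested higher and 5 lower (33.3% and 23.8%, median log2 change 0.07). Over all genes tested 19.8% were higher and 22% lower, with a median of 0.01, so the list lay near the background. Among ligands, Nodal was at 5.71 CPM in AA3 and 4.44 and 3.60 at 10 ng and was not called (edgeR adjusted p = 0.224). Inhba, which encodes the activin A subunit itself, had 173 counts in AA3 and 0 and 5 at 10 ng (log2 change -5.09 ± 0.50, adjusted p = 5.98e-15). Among co-receptors, Cfc1, the Nodal co-receptor Cryptic, was at 5.30 CPM in AA3 and 14.1 and 16.1 at 10 ng (log2 change 1.53 ± 0.32). Tdgf1, the co-receptor Cripto, was at 648 CPM in AA3 and 307 and 336 at 10 ng (log2 change -1.01 ± 0.25), while AA15 and AA100 held 1262 to 2142 CPM.

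The receptor genes Tgfbr1 and Acvr1b had log2 changes of 1.06 and 0.74, the latter lost in DESeq2 (adjusted p = 0.20). The transducer Smad3 was at 9.44 CPM in AA3 and 31.1 and 36.0 at 10 ng (log2 change 1.84 ± 0.29, edgeR adjusted p = 6.5e-08), and no dose-set library held more than 14.3. Lefty1, a secreted Nodal antagonist, was at 10.9 CPM in AA3 and 7.49 and 9.64 at 10 ng and was not called (adjusted p = 0.407). Its paralog Lefty2 was at 12.8 CPM in AA3 and 3.33 and 6.85 at 10 ng (log2 change -1.18 ± 0.30), against 33.6, 33.1 and 120 in AA15 and AA100. Smad7, the inhibitory Smad gene, and Pmepa1, a feedback inhibitor gene, had log2 changes of -1.12 and -1.55, and Pmepa1 lost its call at thinned depth (adjusted p = 0.38). Fst, the activin-binding follistatin gene, was higher (log2 change 1.04 ± 0.30).

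A given gene could lie at 10 ng inside or outside the levels spanned by SFM replicate 1, SB, AA3, AA15 and AA100. Over all genes tested both 10 ng libraries lay above these 6 libraries for 2975 (24.5%) and below them for 3026 (24.9%). For streak genes the numbers were 7 above, 10 within and 0 below. Mesoderm had 5 above, 9 within and 2 below, and endoderm 7, 12 and 2. Neuroectoderm had 5 above, 15 within and 7 below, and pluripotency genes 1, 14 and 10.

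**Figure D4:**
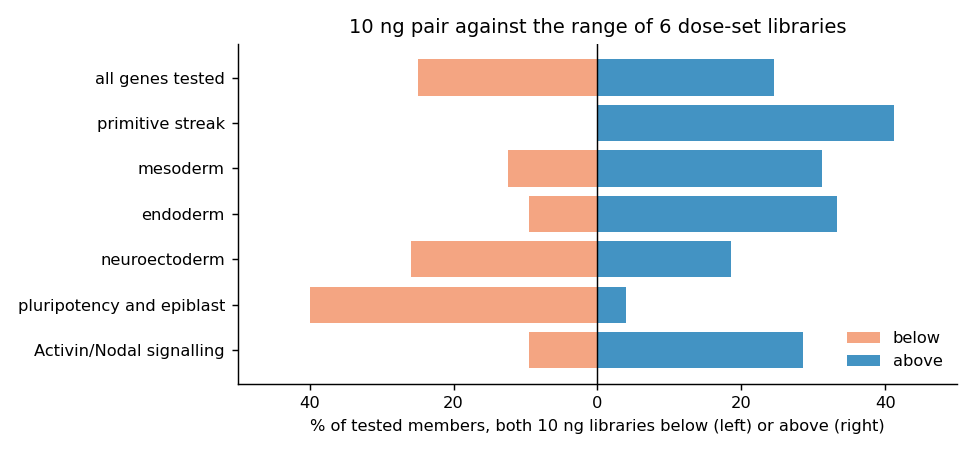
Share of tested genes, in percent, whose level in both 10 ng libraries lay above (blue, right) or below (orange, left) the range of 6 dose-set libraries, over all genes and by list. Over all genes 24.5% lay above and 24.9% below, while 7 of 17 streak genes lay above and 10 of 25 pluripotency genes below.

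Extraembryonic endoderm and fibroblast genes were mostly called lower, against 22% lower and 19.8% higher over all genes. Trophoblast genes, also of cells outside the embryo proper, were not, with 2 of 6 higher and 0 lower. Of 12 extraembryonic endoderm genes tested from a list of 18, 10 were lower and 1 higher, with a median log2 change of -2.05. Their summed level was 2540 CPM in AA3 and 497.5 and 591.8 at 10 ng, and it ranged from 1172 to 2444 in the other 5 dose-set libraries of the range. Ttr, the transthyretin carrier of visceral endoderm, was at 78.8 CPM in AA3 and 1.94 and 1.71 at 10 ng (log2 change -5.46 ± 0.30, edgeR adjusted p = 5.45e-31). The uptake receptor genes Lrp2 and Cubn had log2 changes of -5.30 and -5.37, and the basement membrane genes Lama1 and Col4a1 -2.76 and -2.60. Plat, tissue plasminogen activator, was the member called higher. Of 9 fibroblast genes tested from 12, 7 were lower and 1 higher, while their summed level was 69.98 CPM in AA3 and 87.91 and 79.99 at 10 ng. The sum followed Vim, the intermediate filament gene vimentin, at 8.90 CPM in AA3 and 64.1 and 58.7 at 10 ng. The part of these markers in the lineage differences was not tested.

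Lists outside the lineages held calls in both directions, to be read against the 41.8% of all genes called. Housekeeping genes had 3 of 13 higher and 4 lower, glycolysis genes 4 of 17 and 3, cell division genes 3 of 20 and 4, p53 targets 4 of 12 and 3, and ribosomal protein genes 15 of 79 and 26. Ppia, cyclophilin A, and Aldoa, a glycolytic aldolase gene, had log2 changes of -3.13 and -4.91. Both have close relatives or processed copies in the genome, which can affect counts of unique reads. The part of this in their falls was not tested. Fos, an immediate early gene, was at 0.340 CPM in AA3 and 10.8 and 4.50 at 10 ng, but its 1 ng replicates differed, at 0.431 and 12.4. Trophoblast genes had 2 of 6 higher and 0 lower, blood and endothelium genes 3 of 7 and 1, germ cell genes 1 of 6 and 1, and immediate early and stress genes 3 of 15 and 2. The germ cell gene called higher was Prdm1, at 5.98 CPM in AA3 and 29.7 and 41.5 at 10 ng (log2 change 2.60 ± 0.30).

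Several of the largest differences lay outside the lineage lists and set the dose set apart. The largest fitted change was in the unnamed gene model Gm44505, with 4335 counts in AA3, 0 in both 10 ng libraries and in SFM replicate 2, and 1935 to 6691 in the 6 dose-set libraries. Unnamed models and ribosomal protein copies are otherwise left aside here. Rbfox2, a splicing factor gene, had 2091 counts in AA3 and 0 in both 10 ng libraries, at least 696-fold lower, and it stood between 81.0 and 150 CPM in the dose set apart from SFM replicate 2, where it was at 0. Mga, a MAX-binding repressor gene, had 0 counts in AA3 and 323 and 1197 at 10 ng, at least 507-fold higher. Ncl, the nucleolar protein nucleolin, was at 38.1 CPM in AA3 and 6276 and 6250 at 10 ng, with 27.5 to 48.8 in the dose set and 5444 in SFM replicate 2. In all, 9 genes were at 0 in all 6 dose-set libraries with at least 50 counts over the 10 ng pair. Of these 9, 7 had counts in SFM replicate 2 and all 9 in the 1 ng pair and standard RNA-seq. Another 22 genes were at 0 in both 10 ng libraries with at least 50 counts in AA3, Fezf2 among them. Other large falls were in Bex6, Ctps2, Emc6, Ass1, Tex52, Trim7 and Tenm3, and other large rises in Ttc14, Ankrd17, Abl1, Enkur, Dst, Eif4g2 and Rn7sk.

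SFM replicate 2 received no activin and lay farther from the 10 ng libraries than SFM replicate 1 did over all genes (SD of the log2 ratio 2.01 and 2.03, against 1.31 and 1.28). Some of the largest differences ran the same way in it. Among the 254 genes called by at least 32-fold, 40.6% differed at least 2-fold the same way between SFM replicate 2 and replicate 1 and 8.27% the opposite way, against 26.2% and 22.7% over all genes. Among all 3548 genes called by at least 2-fold the shares were 30.6% and 21.6%. For the lineage lists such sharing was 1 of 10 genes called by at least 2-fold in the streak list (1 opposite), 4 of 11 in mesoderm (3 opposite) and 2 of 14 in endoderm (3 opposite). It was 5 of 15 in neuroectoderm (5 opposite) and 5 of 11 among pluripotency genes (0 opposite). Of the 22 genes at 0 in the 10 ng pair, 9 had counts in SFM replicate 2. The cause of this sharing was not tested.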

How the data were processed

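Expression was measured in mouse embryoid body libraries. The authors deposited counts of unique reads for each RefSeq transcript, per the file headers. Of the 28 tables read, 5 held 9 values that were not whole, and the authors' values there were treated as estimated counts (expected counts) and rounded. A further 5 tables were not used. Which aligner, counting rule, strand setting and build were used is not given in the sources used here. Of 26566 transcripts, 25857 were named by a RefSeq table, 150 by GENCODE and 559 kept their identifier, and counts were summed to 21844 genes.

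The 10 ng pair, AA3 and the AA15 pair were fitted with edgeR 4.0.16 (R 4.3.3): filterByExpr by group (minimum count 10, minimum total 15), TMM scaling, robust quasi-likelihood, Benjamini-Hochberg adjusted p at 0.05 over all genes tested. The spread comes from the pairs (2 residual degrees of freedom), and AA3, with 1 library, is assumed to vary like them. Main p-values are from edgeR. Standard errors of log2 changes follow the ± sign. A group at 0 was set to 3 counts in all for a bound on its fold. Intervals (95%, exact) and these bounds hold counting error alone, because PCR copies of a molecule are counted separately. Folds of genes with few counts are set by that error.

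On simulated data with 200 changed genes (11794 genes tested) 35.4%, 87.9% and 93.8% of genes changed 2-, 4- and 8-fold were recovered, and 7.2% of calls were false. The simulated counts had the spread fitted from the technical pairs, for AA3 as well. These rates therefore do not measure the error of the real calls, which covered 41.8% of genes. Named genes are T, Cer1, Foxa2, 11 further anchors, up to 5 members with the largest change in each of 6 main lists and up to 2 in each other list, and the 8 largest called rises and falls outside the lists whose higher group averaged 50 counts or more and whose 10 ng libraries moved the same way (pseudogenes, copies of ribosomal protein genes and unnamed models were not eligible); a selection is printed, and a few genes are not reported here. Others, among them Evx1, Wnt3, Lhx1, Wnt8a, Bmp4, Tcf15, Twist1, Foxc1, Lfng, Dll3, Kdr, Hhex, Cxcr4, Dkk1, Otx2, Ripk4, Lhx2, Fabp7, Tubb3, Irx3, Sox21, Sox2, Fgf5, Pou3f1, Lin28a, Dppa5a, Tdgf1, Lefty2, Smad7, Tgfbr1, Acvr1b, Fst, Plat, Vim, Lrp2, Lama1, Col4a1, Dnmt3b, Gm44505 and Ncl, were chosen after their values were seen. The comparison and gene lists were chosen with earlier results of these data known. Alternatives covered scaling, tool, filter, libraries in the fit, input, depth and replicates. DESeq2 1.42.0, Python 3.11.15, numpy 2.4.6, pandas 2.3.3, scipy 1.17.1 and matplotlib 3.10.9 were also used.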

Additional observations from a re-analysis of the deposited data

How the results depend on the processing

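Fits differed in which libraries set the spread. With SFM, SB and AA100 added, all counts of calls fell to 0 in edgeR, over all genes and in all 6 main lists (1617 genes at an unadjusted p under 0.05, DESeq2 on the 5 libraries 1588 higher and 1976 lower). Without SFM replicate 2, an alternative chosen after seeing the data, they returned to 2471 higher and 2606 lower. Leaving out genes that differed at least 2-fold the same way between the SFM libraries, also chosen after seeing the data, left 1661 genes lower, 1087 of them by at least 2-fold. Lower members were then 0 in mesoderm, 7 in neuroectoderm, 6 in pluripotency and 3 in Activin/Nodal, and leaving out genes at 0 in a whole set gave 1 in mesoderm. At thinned depth lower members were 0 in streak, 1 in mesoderm, 7 in pluripotency and 3 in Activin/Nodal. With the 1 ng pair in place of the 10 ng pair, 2 streak and 7 endoderm genes were lower and 4 pluripotency genes higher, and Lin28a changed sign (-0.14). Mesoderm had 1 lower with 3 libraries only and with the 1 ng pair added, and pluripotency 1 higher in DESeq2 and 0 with no low count filter. Leaving out single libraries gave 1700 to 2789 genes higher and 2045 to 2837 lower, 1390 to 1835 and 1614 to 1768 by at least 2-fold. It gave 1 to 2 streak genes lower, 1 to 2 mesoderm genes lower, 8 to 12 neuroectoderm genes lower and 1 to 3 pluripotency genes higher, and the lone library left at 10 ng or AA15 was assumed to vary like the other pair. The cause of these shifts was not tested. In DESeq2 11 of the 116 named genes, and without 10 ng replicate 2 13 of them, lost their calls. Some named genes had no adjusted p in these fits, among them Wnt3a in both and Fezf1 in DESeq2, and are not counted as lost. No paired analysis was possible because AA3 has 1 library and the groups compared share fewer than 2 replicate numbers. The depth of 10 ng replicate 1, 3110866 counts, limits genes with few counts.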

Other observations

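Rn7sk, a small nuclear RNA that regulates transcription elongation, had 2 counts in AA3 and 5489 and 8098 in the 10 ng libraries, but its 1 ng technical replicates differed as well, at 19 and 21394 counts. Its call was lost with the 1 ng pair in place of the 10 ng pair (adjusted p = 0.34). Rps23rg1, a retrogene copy of a ribosomal protein gene, was at 1008 CPM in AA3 and at 2.22 and 1.08 at 10 ng, at 615 to 1162 in the 6 dose-set libraries and at 2.05 in SFM replicate 2. Rn7sk was named by the rule for the largest rises outside the lists, while Rps23rg1 was chosen after its values were seen, because of its size.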
